A study of Mus musculus with 6 samples.

Results

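The cytosolic ribosomal protein genes were taken as every gene symbol of the form Rpl or Rps followed by a number and at most 1 letter, with Rpsa, Rplp0, Rplp1 and Rplp2, whose entries had status OK in all 6 files. Processed copies and ribosomal S6 kinases do not match the form. The rule found 81 of 23091 symbols, 32 of them Rps genes (small subunit) and 49 Rpl genes (large subunit). The rule itself uses symbols and entry status, not levels.

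The libraries came from wild-type C57/Bl6j mice aged 7 weeks, whose naive CD4 T cells (spleen and nodes) were differentiated into Th9 cells, helper T cells that make interleukin 9. All cultures had plates coated for CD3 and CD28 stimulation, 20 ng/ml IL-4, 2 ng/ml TGFβ and an antibody blocking interferon γ, and differed in having 10 ng/ml IL-1β (+IL-1β) or none. Each arm gave 1 library after 1 h, 1 after 3 days (day 3) and 1 in vivo, where CD45.2 cells cultured for 3 days had been injected into CD45.1 mice and were sorted 1 week later. RNA was rRNA-depleted at 1 h and poly(A)-selected in the other 4 libraries, so stage and RNA selection cannot be told apart in a comparison with 1 h. The sources used here do not say whether animals were pooled or from which tissue the in vivo cells were sorted. With 1 library per group, no difference between groups has a replicate check.

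Ribosomal proteins join ribosomal RNA to form the small subunit, which reads the message, and the large subunit, which forms the peptide bond. Their mRNAs typically begin with a C and a run of pyrimidines, the 5′ terminal oligopyrimidine (TOP) tract, through which mTOR signalling controls their translation. T cells leaving quiescence make many ribosomes. Most of these genes also have processed pseudogene copies in the mouse genome.

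The start of the gene is a trait that the rule did not use and that some of the members share. RefSeq promoter windows (build GRCm38.p6, 250 bases before and 50 after the start) were found for 60 of the 81 members. The annotated start was a C followed by at least 4 bases that were each C or T in 13 of these 60 (21.7%), against 813 of all 27025 genes with a window (3.01%). CTTTCC, letters often found inside the tract, were present on either strand anywhere in the window in 53.3% of members and 29.3% of all genes, and may overlap the tract. CCGGAAG, the core that ETS factors recognise, was present on either strand in 41.7% and 9.93%. TATAAA was present in 10.0% and 15.7%. A match describes letters only, and an annotated start that is off by a base hides a tract. The members below show such starts in genes of different role, with 20 bases before the start and 20 from it, 5′ to 3′, and the pyrimidine run at the start in capitals. They encode the S6 kinase substrate (Rps6), another small subunit protein (Rps10), a stalk protein (Rplp2) and large subunit proteins (Rpl28, Rpl35, Rpl38). They lie at chr4:86857348-86857387 (minus strand, Rps6), chr17:27635225-27635264 (minus, Rps10), chr7:141447631-141447670 (plus, Rplp2), chr7:4792945-4792984 (plus, Rpl28), chr2:39005112-39005151 (minus, Rpl35) and chr11:114668560-114668599 (plus, Rpl38).
Rps6: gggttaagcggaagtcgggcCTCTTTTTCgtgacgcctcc
Rps10: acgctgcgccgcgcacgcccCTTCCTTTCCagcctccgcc
Rplp2: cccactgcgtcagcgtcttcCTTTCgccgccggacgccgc
Rpl28: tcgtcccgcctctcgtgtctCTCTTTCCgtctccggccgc
Rpl35: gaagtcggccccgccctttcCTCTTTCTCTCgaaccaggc
Rpl38: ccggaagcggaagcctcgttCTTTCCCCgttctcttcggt

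Levels are the authors' FPKM, a fragment measure per length of transcript and per size of library, with a deposited interval for each value. Depth was unknown. Summed over members, FPKM was 2287 with IL-1β and 1793 without it at 1 h, 49535 and 35113 at day 3, and 34124 and 33515 in vivo. This was 12.1% of all FPKM in the day 3 library with IL-1β and 9.74% in the one without. In vivo the share was 9.27% in both arms. At 1 h it was 0.996% and 1.26%, but non-polyadenylated and small structured transcripts made up 90.1% and 87.4% of those libraries. Leaving these out, the member share at 1 h was 10.1% with IL-1β and 9.99% without, against 12.2% and 9.80% at day 3. Small subunit genes held between 44.4% and 51.5% of the member sum in the 6 libraries.

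**Figure D1:**
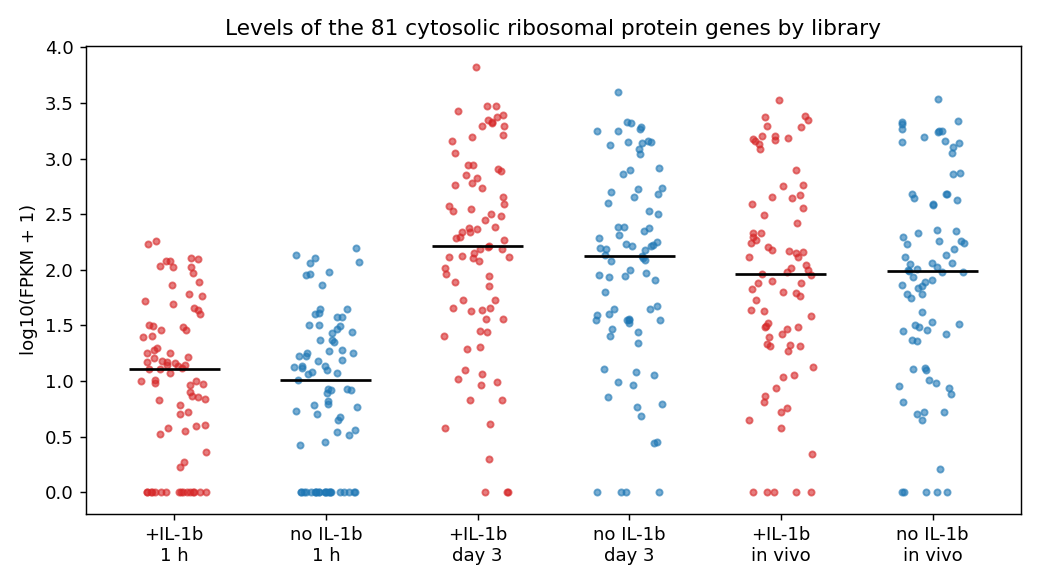
Each point is 1 ribosomal protein gene in 1 library, as log10 of FPKM + 1, and each line is the library's median (red, +IL-1β; blue, no IL-1β). The median was 12.0 and 9.22 FPKM at 1 h, 163 and 132 at day 3, and 90.6 and 97.2 in vivo, with and without IL-1β.

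Although the proteins are needed in like amounts in each ribosome, the listed levels ran over orders of magnitude. The highest means over the 4 poly(A) libraries were those of Rpl41 (4327 FPKM), Rpl8 (2320), Rpl32 (2302) and Rps9 (2290), all structural proteins. Rpl41, which encodes a very short peptide of the large subunit, stood at 6627 FPKM with IL-1β and 3948 without at day 3, and at 3334 and 3400 in vivo. The 10 highest members held between 54.4% and 60.0% of the member sum. The 5 lowest were Rpl10l and Rpl3l, listed at 0 in all 6 libraries, then Rps12 (0.590), Rpl39l (1.01) and Rps28 (2.35). Rps28 was at 9.38 FPKM at day 3 with IL-1β and listed at 0 in the other 5 libraries. Rpl10l and Rpl39l are known for expression in testis and Rpl3l for striated muscle. Rps27l, a paralog of Rps27 induced by p53, was well above these, at 455 FPKM with IL-1β and 243 without at day 3, and 195 and 179 in vivo, and was listed at 0 in both 1 h libraries. The order of members was alike in the 4 poly(A) libraries (Spearman's rho 0.969 to 0.990 over 6 pairs, 81 genes, a description) and less so in pairs with a 1 h library (0.830 to 0.889 over 9 pairs). These libraries share gene lengths and pseudogene copies.

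The levels moved with how closely a gene is copied elsewhere in the genome. In GENCODE M21, 74 members had at least 1 pseudogene transcript matching at least 80% of the coding sequence at 95% identity or more. The 20 members whose closest copy was identical had a median mean level of 65.5 FPKM, the 34 at 99% to under 100% a median of 97.1, and the 27 under 99% a median of 492. Of the 14 members with a mean of at least 1000 FPKM, 11 were in that last class. Rps12, a core small subunit protein, had an identical copy and 21 copies at 95% identity or more, and was listed at 0 in 4 libraries. Over the 81 members, identity and mean level had a Spearman's rho of -0.45, a description over genes that share these libraries. The sources used here do not say how reads that match several places were counted, so levels of members with near-identical copies are uncertain, and the part of the copies in them was not tested.

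**Figure D2:**
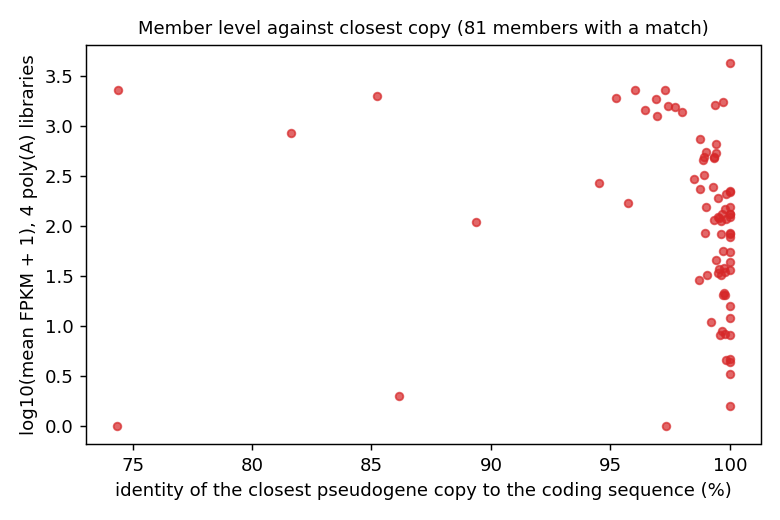
Each point is 1 of the 81 members, with the identity of its closest pseudogene copy to its coding sequence on the x axis (percent) and log10 of its mean FPKM + 1 over the 4 poly(A) libraries on the y axis. Members over 1000 FPKM lie mostly at identities under 99%, and members with the lowest listed means include several at or near 100% and the restricted paralogs below it.

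A second limit lies in the intervals. In each poly(A) library between 34 and 38 members had an FPKM above their own upper bound, 44.7% to 48.7% of members above 0, against 1.98% to 2.39% of all genes. Rps26 at day 3 with IL-1β, for example, was listed at 877 FPKM with an interval of 444 to 579. At 1 h no member did.

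For single comparisons, a gene was compared when at least 1 of the 2 libraries reached 5 FPKM. To be counted in a direction, its FPKM + 1 had to differ by 2-fold or more, with no overlap of the intervals. These counts carry no test. Many values listed at 0 had an interval of 0 to 0, which any lower bound above 0 in the other library clears. This held without IL-1β for Rps26, Rpl37a and Rpl9 at 1 h and for Rpl9 at day 3.

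IL-1β at day 3 went with a small, broad shift. Of 75 members compared, 69 had a log2 ratio above 0 and the median was 0.49, against -0.05 over all 7962 genes compared. Scaled to equal sums without non-polyadenylated transcripts, these medians were 0.31 and -0.22. Only 2 members were counted as higher, 2.67% of them, where 1.29% of all genes were, and 0 as lower, where 2.15% of all genes were. Rpl26, a large subunit protein near the exit tunnel known to promote p53 translation, stood with IL-1β at 118 FPKM (interval 83.1 to 154) and without it at 28.4 (11.4 to 47.1), which is 2.02 on the log2 scale. Its locus overlaps the model Gm15772, whose status was not OK. Rpl9, of the large subunit, had 5.78 FPKM in the +IL-1β library and a listed 0 in the other. Rps and Rpl genes had medians of 0.45 and 0.56.

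Members with known roles beyond the ribosome had these levels at day 3. Rpl5, which with Rpl11 binds MDM2, stood at 91.7 FPKM with IL-1β and 62.7 without. Rpl11 stood at 26.9 and 21.2, and Rpl23, which also binds MDM2, at 52.4 and 37.9. Rps6 stood at 333 with IL-1β and 222 without. None of these met the rule. Of the stalk genes, whose proteins recruit elongation factors, Rplp0 was at 881 FPKM with IL-1β and 796 without, a log2 ratio of 0.15. Rplp1 was at 2113 and 1403 (0.59), and Rplp2 at 131 and 92.7 (0.49). Rpl38, known for selective translation of Hox mRNAs, was at 87.4 and 34.4 FPKM, a log2 ratio of 1.32, with overlapping intervals. The lowest ratio among members above 0 in both libraries was that of Rpl28, at 5.81 with IL-1β and 11.0 without (-0.82).

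The shift at day 3 moved with transcript length over all genes. The log2 ratio and the length had a Spearman's rho of -0.58 over 7136 genes, and members are short, with a median of 851 bases against 2687 for all 18515 symbols with a length. Each length is that of a chosen GENCODE M21 transcript, which can differ from the mm9 model behind the FPKM. That of Rps20, at 3706 bases, is longer than its mm9 locus. The fifth of genes with the shortest transcripts, which held 65 of the 75 members, had a median of 0.36 without its members. Removing the trend with length left a member median of 0.08. Genes of mitochondrial ribosomal proteins, also short, had a median of 0.44, with 72 of 76 above 0.

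**Figure D3:**
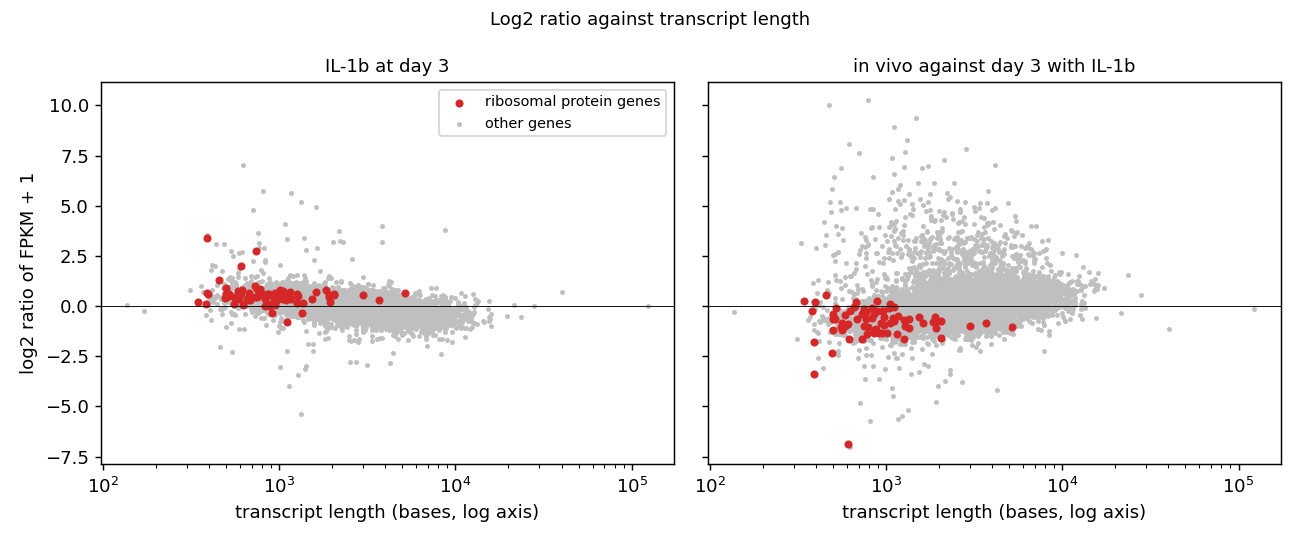
Log2 ratio of FPKM + 1 against transcript length (bases, log axis), for +IL-1β over no IL-1β at day 3 (left) and in vivo over day 3 with IL-1β (right), each point 1 compared gene. Members (red) lie at the short end, within the cloud of other genes of that length (rho -0.58 on the left, 0.36 on the right, over all genes).

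At 1 h 4 of 57 members compared were counted as higher with IL-1β (7.02%), near the 7.72% of all 933 genes, and 0 as lower, where 0.214% of all genes were. Rps26 had 42.8 FPKM (16.4 to 59.5) in the +IL-1β library and a listed 0 in the other. Rpl37a at 8.35 and Rpl9 at 6.37 FPKM were also listed at 0 without IL-1β. Rps3, a small subunit protein that also binds NF-κB p65, was counted, with 92.4 FPKM (74.4 to 110) in the +IL-1β library and 43.4 (28.5 to 58.1) in the other, which is 1.07 on the log2 scale. Its introns hold 2 of the snoRNA genes described below. Rps3 did not meet the rule under 3 of 11 alternatives. Those were the median shift (0.88), equal sums without non-polyadenylated transcripts (0.74) and the length trend removed (0.82). The median was 0.25 over members and 0.30 over all genes. Rpl32 at 72.2 FPKM with IL-1β and 18.2 without had the largest ratio among members above 0 in both libraries (1.93), with overlapping intervals. Rps7 (18.1 and 5.28 FPKM) and Rpl18 (13.8 and 4.05) came next. The smallest ratio among members above 0 in both libraries was that of Rps27a, which encodes a ubiquitin fusion (5.91 and 10.5, -0.74). Rpl7 (28.0 and 43.7) was also among the lowest. Of all members, 16 were listed at 0 with IL-1β and 22 without, against 3 to 5 in each poly(A) library. Rpl12, Rpl34, Rpl36, Rpl36a, Rps27, Rps27l and Rps29 were at 0 in both 1 h libraries and above 0 in the other 4. Among those at 0 only at 1 h without IL-1β were Rpl23, Rpl24, Rpl28, Rpl31, Rpl37, Rpl37a and Rps26, and Rpl30, Rpl38 and Rps23 were at 0 only at 1 h with it. All 81 were above 0 somewhere except Rpl10l and Rpl3l, and 56 were above 0 in all 6 libraries.

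In vivo 0 of 72 members were counted in either direction between the arms, where 6.23% of all 8639 genes were higher and 3.48% lower with IL-1β. The median was -0.03, with 34 above 0 and 38 below, and 0.03 over all genes. Among members above 0 in both libraries, Rpl30 had the largest ratio, at 20.4 FPKM with IL-1β and 9.13 without (1.08), and Rpl3, which shapes the peptidyl transferase centre, the smallest, at 60.3 and 115 (-0.91). Rpl24 (10.3 and 5.45) and Rpl38 (131 and 77.2) came next at the upper end, and Rps29 (4.71 and 8.68) at the lower.

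Across the 3 stages, limma with stage as covariate called 0 of 75 members for IL-1β, where 0% of all 8946 genes were called higher and 0% lower. The smallest adjusted p of a member was 0.937. At an unadjusted p under 0.05 there were 4 members, all higher, and 320 genes in all. The fitted log2 change was above 0 for 63 of the 75 members, with a median of 0.28 against 0.06 for all genes.

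Between in vivo and day 3, the arm with IL-1β differed more. Of 75 members compared, 21 were counted as lower in vivo (28.0%), where 5.87% of all 8572 genes were, and 0 as higher, where 12% of all genes were. The median was -0.73, against 0.04 over all genes, and 68 were below 0. The fifth of genes with the shortest transcripts, which held 65 of the 75 members, had a median of -0.41 without its members. Removing the trend with length left 8 members counted and a median of -0.28, and scaling to equal upper quartiles left 12. The share of all genes counted under these settings was not computed, so these counts have no background beside them. By closest pseudogene copy, 16 of 51 members at 99% identity or more were lower (median -0.86), and 5 of 24 others (median -0.51). In the arm without IL-1β, 3 of 73 were lower (4.11%), where 0.665% of all 8126 genes were, and 0 higher, where 2.13% were. The median there was -0.25, against -0.03. Lower in that arm were 3 of 49 members at 99% identity or more (median -0.31), and 0 of 24 others (median -0.04). The part of the copies in these ratios was not tested. Of 73 members compared in both arms, 64 had the lower ratio in the arm with IL-1β. Per member, this difference equals the IL-1β log2 ratio in vivo minus that at day 3 (member medians -0.03 and 0.49). The count is therefore not separate from the shift at day 3, which rests on the same day 3 libraries. The share of all genes with the lower ratio in the arm with IL-1β was not computed. Without its members, the fifth with the shortest transcripts had a median of -0.03 in the arm without IL-1β, against the -0.41 given above. The difference between the arms was not tested, having 1 library in each cell of the design.

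Rpl26 was counted in both arms, listed at 0 in vivo in both arms against the day 3 values given above. It was also listed at 0 in both 1 h libraries, and had 6 pseudogene copies at 95% identity or more, the closest at 99.5%. Rpl7a, of the large subunit, was counted without IL-1β only, at 12.1 FPKM in vivo and 34.2 at day 3 (-1.43), and had 9.92 and 26.5 with IL-1β. With IL-1β, low counted ratios were also those of Rpl10a (75.8 in vivo and 241 at day 3, -1.66) and Rpl27 (23.8 and 76.1, -1.64), both of the large subunit. Rpl5 (30.3 and 91.7, -1.57), Rps6 (149 and 333, -1.16), Rpl10 (74.7 and 194, -1.36) and Rps27a (25.3 and 52.8, -1.03) were also among the 21. Rpl11, Rpl23, Rpsa, Rps3, Rps19, Rpl22, Rpl13a, Rpl38 and the 3 stalk genes were not. Rpl38 ran the other way in both arms, at 131 FPKM in vivo and 87.4 at day 3 with IL-1β (0.57) and at 77.2 and 34.4 without (1.14), and did not meet the rule.

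**Figure D4:**
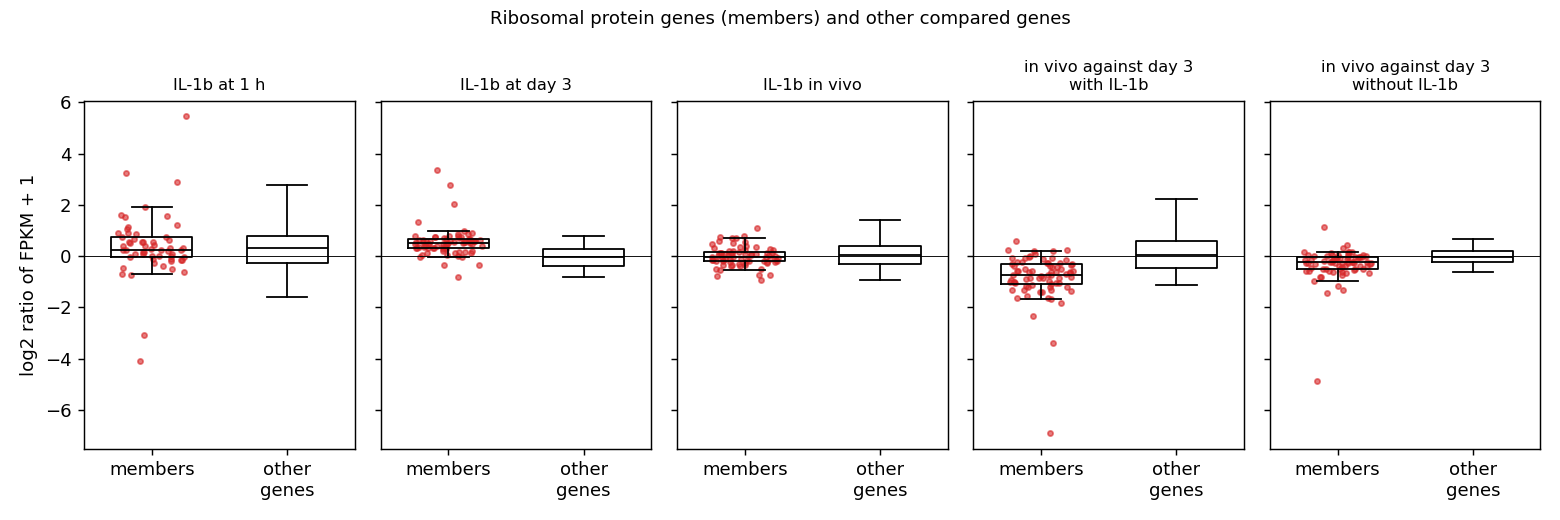
Log2 ratio of FPKM + 1 for members (red points, left box) and other compared genes (right box) in 5 comparisons, with boxes at the quartiles and whiskers at the 5th and 95th percentiles. Points far from 0 include members listed at 0 in 1 library, whose place depends on the pseudocount of 1. The member medians were 0.25, 0.49, -0.03, -0.73 and -0.25, in the order of the panels.

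With the arms standing in for replicates, limma on the 4 poly(A) libraries called 3 of 75 members lower in vivo (where 0.326% of all 8901 genes were) and 0 higher (where 4.26% were). Among them were Rpl7a (log2 change -1.38 ± 0.36 SE, adjusted p = 0.0397, lower in 2 of 2 arms) and Rpl26 (adjusted p = 7.3e-07, listed at 0 in vivo in both arms). These calls are weak evidence. The fit has 1 residual degree of freedom, so its p-values rest on a variance prior estimated over all genes, worth 13.7 degrees of freedom here, 4.15 with a pseudocount of 0.1 and infinite with a pseudocount of 5. On simulated data the fit recovered none of the changes put in when each gene kept its own residual spread, and when spreads were drawn from the prior it recovered most, with more false calls than the threshold allows in some draws. Dropping the arm term left 1 member called, where 6 of all 8901 genes were called lower. Dropping the arm term and also leaving out any 1 of the 4 libraries left 1 stage with a single library, assumed to vary like the other stage. Such fits cannot check the calls. In them the members' median log2 change ran from -0.72 to -0.29.

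Markers of other cells were at higher FPKM in vivo beside these values. The 8 epithelial markers, among them surfactant genes, summed to 17036 FPKM in vivo and 14.5 at day 3 with IL-1β, and to 6572 and 13.2 without. The 9 myeloid markers summed to 1977 and 35.4 with IL-1β and to 819 and 19.6 without. The 36 markers of non-T cells together held 5.40% of all FPKM in vivo with IL-1β and 2.17% without, against 0.0223% and 0.0208% at day 3. At day 3, 2 epithelial markers were at 0 with IL-1β and 1 without, and in vivo 0 were in either arm. The 11 T cell markers summed to 2750 FPKM in vivo and 3467 at day 3 with IL-1β, and to 3078 and 3180 without. The member sum was 12.4 times the T cell marker sum in vivo and 14.3 times at day 3 with IL-1β, and 10.9 and 11.0 times without. In these bulk libraries fewer cells of a type and less RNA per cell cannot be told apart, and the part of other cells in the member ratios was not tested. The ratio also moved with length with IL-1β (rho 0.36 over 7702 genes, and 0.04 over 7313 without).

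Other genes of translation gave these counts for in vivo over day 3 with IL-1β, where 5.87% of all genes were lower and the median was 0.04. Of 76 mitochondrial ribosomal protein genes, 7 were lower (9.21%) and the median was -0.64. Of 19 elongation factor and other TOP genes, 5 were lower (Eef1g, Btf3, Npm1, Hnrnpa1 and Nap1l1) with a median of -0.60, but Eef2, the translocation factor, was at 1125 FPKM in vivo and 875 at day 3. Hnrnpa1 was listed at 0 in vivo in both arms and stood at 26.9 FPKM with IL-1β and 15.3 without at day 3. The size of its ratio therefore depends on the pseudocount. Of 29 initiation factor genes 3 were lower (median -0.41), and of 39 ribosome biogenesis genes 2 were (5.13%, near the share of all genes, with a median of -0.39). Without IL-1β the medians of these lists were -0.13, -0.08, -0.23 and -0.42. Fau and Rpl36al, 2 of 5 ribosomal protein genes and paralogs outside the naming rule, were lower with IL-1β, Fau at 141 FPKM in vivo and 397 at day 3. Myc, which drives ribosome production, was at 82.5 in vivo and 69.2 at day 3 and did not meet the rule.

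Day 3 against 1 h compares poly(A)-selected with rRNA-depleted RNA. With IL-1β 68 of 75 members were counted as higher at day 3 (90.7%), where 95.5% of all 7392 genes were, and 0 as lower (0.595% of all genes). Without IL-1β 66 of 73 were higher (90.4%), where 95.7% of all 7689 genes were, and 0 lower (0.299%). The member shares were below these backgrounds. The medians were 4.16 over members and 3.25 over all genes with IL-1β, and 3.89 and 3.44 without. Rpl32 was at 2998 FPKM at day 3 and 72.2 at 1 h with IL-1β, and at 2145 and 18.2 without. Rpl9 was at 5.78 and 6.37 with IL-1β. Scaled to equal sums without transcripts lacking a poly(A) tail, the member medians were 0.12 with IL-1β and -0.35 without. This scaling divides every gene by the same factor, so the medians over all genes fall with those of members. Before scaling they were below the member medians in both arms.

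The 1 h libraries also held small RNAs that lie inside member genes. Of 31 snoRNA entries within the loci of 22 members, 9 were above 0 at 1 h with IL-1β and 4 of these without, and 0 in any poly(A) library. Snord32a, in Rpl13a, was at 58624 FPKM in the +IL-1β library and a listed 0 in the other, while its host was at 105 and 94.1. Snora64, in Rps2, was at 6356 and 3576, and Snord15b, in Rps3, at 6364 and 4352. Snora21, in Rpl23, ran the other way, at 697 with IL-1β and 2109 without. FPKM of such short entries changes greatly with few fragments.

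Among the 572 other genes with a mean of at least 100 FPKM, those most like the members' median pattern over the 4 poly(A) libraries were Psmd8, Psmb7, Ostc, Lsm4 and Cct6a, by the summed absolute difference of centred log2 values (0.06 to 0.11, against a median of 0.69 for the 70 members used and 0.80 for the 572 candidates). Psmd8, a proteasome subunit, was at 124 FPKM in vivo and 199 at day 3 with IL-1β, and at 125 and 150 without.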

How the data were processed

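RNA-seq of 6 libraries was analysed from gene tables with FPKM and a lower and an upper bound, per the file headers. The authors' FPKM are from reads aligned with TopHat to mm9, per the submitters' processing notes; the sources used here name neither the counting tool nor the level of the intervals. Of 23700 entries per file, 285 without status OK were left out, none of them a member, and entries of a symbol were summed. Log2 ratios used a pseudocount of 1. The 7 comparisons used the size rule given above, without a test. limma 3.58.1 in R 4.3.3 gave adjusted p-values (Benjamini-Hochberg, 0.05) over genes with at least 5 FPKM in 1 library. Lengths and pseudogene copies (blastn) came from GENCODE M21, promoters from RefSeq. Named genes were those counted between arms or in vivo (the extremes where over 10), the extremes per comparison, the highest and lowest levels, members at 0, restricted paralogs and members with special roles. Members and lists were chosen with earlier results of these data known. Both rules were tested on simulated data. Alternatives were other pseudocounts, filters, scalings, a length correction, other limma designs and leaving out libraries. Using the interval midpoint was chosen after seeing the data. Values were computed with Python 3.11.15, pandas 2.3.3, scipy 1.17.1 and statsmodels 0.14.6. Results of some single members are not reported here.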

Additional observations from a re-analysis of the deposited data

Results flagged for a closer look

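Rpl19, of the large subunit, was counted as lower in vivo than at day 3 with IL-1β and was nearly level without it, the ratios having opposite signs. It stood at 158 FPKM in vivo and 319 at day 3 with IL-1β, a log2 ratio of -1.01, and at 180 and 176 without, a log2 ratio of 0.03. The difference was not tested. The first ratio is close to the 2-fold limit, and Rpl19 did not meet the rule under 5 of 11 alternatives.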

How the results depend on the processing

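Of 98 alternatives for the counts, 72 stayed within 1.5 times. These 72 include counts of 0 that stayed 0, as in every alternative of the fit for IL-1β across stages. For the size rule, the share of all genes counted was not computed under the alternatives. The member counts given next therefore have no background beside them. With a minimum of 20 FPKM, 2 members were counted for IL-1β at 1 h and 1 at day 3. Without the intervals there were 12 at 1 h, 4 at day 3, 1 in vivo, and 5 for in vivo against day 3 without IL-1β. For in vivo against day 3 with IL-1β, equal upper quartiles left 12 and removing the length trend left 8, with a median of -0.28. For day 3 against 1 h with IL-1β the median shift left 29, equal upper quartiles 24, equal sums without transcripts lacking a poly(A) tail 13, and the length trend 14; without IL-1β these were 15, 17, 10 and 10. The medians that changed sign were those at 1 h for IL-1β (-0.051, equal sums), in vivo for IL-1β (0.038, equal upper quartiles), and day 3 against 1 h with the length trend removed (-0.28 with and -0.36 without IL-1β) or equal sums (-0.35 without). These scalings act on all genes, whose median for IL-1β at 1 h under equal sums was -0.12. For IL-1β at day 3 equal sums left a member median of 0.31 and the length trend 0.08. Removing the length trend also removes the overall shift.

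For the in vivo limma fit, 1 member was called lower with a pseudocount of 0.1 (8 of all 8901 genes) and with no filter (4 of 14725). It was also 1 with all 6 libraries (8 of 8946) and with no arm term (6 of 8901). There were 6 with a pseudocount of 5 (55 of 8901) and with a trended robust prior (71 of 8901). With 1 library left out and no arm term, the members' median log2 change ran from -0.72 to -0.29. For IL-1β across stages 0 members were called under every alternative run. Over all genes there were also 0 calls under most of them. The exceptions were 1 of 414 genes with 5 FPKM in every library and 34 of 8901 without the 1 h stage. No paired analysis was possible because each group has 1 library, so there are no replicate numbers to pair; stage and arm entered the limma fits as terms. Depth is unknown, and 1 h intervals were wide, with a median half-width of 52.9% and 74.7% of the FPKM with and without IL-1β, against 14.5% to 22.6% in the poly(A) libraries.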
